A study of Mus musculus with 12 samples.

Results

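The insulin-like growth factor (IGF) axis and the long noncoding RNA H19 were followed here through 10 genes on 12 one-colour Agilent arrays of mouse RNA. The genes were the ligands Igf1 and Igf2, the receptors Igf1r and Igf2r, the binding protein genes Igfbp2, Igfbp3, Igfbp4, Igfbp5 and Igfbp7, and H19. They are 10 of the 27670 distinct gene names or identifiers on the array, were chosen by name, and 18 of the 41174 gene probes on the array carried one of those names or an accession that now belongs to one of them. A further 2 probes stand under older synonyms of Igf1r and were outside that rule. Of the 18 probes, 17 exceeded background on 1 or more arrays and entered the tests, together with 37796 probes in all. The exception was Igfbp3 probe 2, which was not well above background on any array.

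The study reprogrammed fibroblasts into induced pluripotent stem (iPS) cells and hybridised each RNA once. The 9 iPS lines all received Oct4 (Pou5f1). They comprised 2 lines made from mouse embryonic fibroblasts with Bmi1, a Polycomb protein, and Oct4; 5 lines made with Oct4 from embryonic fibroblasts that had first been turned into neural stem cell-like cells with an activator of the hedgehog pathway (1 line with Shh, 2 with oxysterols, 2 with purmorphamine); and 2 lines made from adult tail-tip fibroblasts with oxysterol and Oct4. The remaining arrays held embryonic stem (ES) cells of 129/Ola mice, mouse embryonic fibroblasts (MEF), and spheres of Bmi1-transduced neural stem cell-like cells grown from embryonic fibroblasts, 1 array each. The labels do not say that lines of a group came from separate cultures or animals, so p-values below measure only the spread between these lines. MEF, ES and the spheres, with 1 array each, add nothing to that spread. The labels also give no strain for the fibroblasts, no age for the tail-tip donors and no statement on feeder cells.

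IGF1 and IGF2 are secreted peptides that signal for growth and survival through the receptor tyrosine kinase encoded by Igf1r, while the Igf2r receptor binds IGF2 and carries it to lysosomes. The IGF-binding proteins hold the ligands in the extracellular space and set how much of them reaches the receptor. Igf2 and H19 lie side by side on mouse chromosome 7 and share enhancers and an imprinting control region, so that Igf2 is normally transcribed from the paternal and H19 from the maternal copy.

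Values below are log2 levels: the log2 of the processed signal minus the 75th percentile of the same array, so that 0 is the 75th percentile of that array. The 75th percentile ran from 1322 to 2148 intensity units, and 58.4% to 80.0% of spots on an array were well above background. A level is comparable between arrays for 1 probe, not between probes. All 10 measured pluripotency markers were well above background in ES and in 8 of the 9 lines, and 9 of 10 in purmorphamine-Oct4 line 1, where Tdgf1 was not. Their summed level was between 152 and 223 times the 75th percentile in the lines and 178 in ES, against 1.05 in MEF and 0.911 in the spheres. In the spheres 6 of the 8 neural stem cell markers were above background, against 7 in MEF and 7 in ES. Sox2 and Prom1 were not above background in the spheres. The summed level of the 8 markers was 2.71 in the spheres, below the 4.49 of MEF.

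Against MEF, the lines had more Igfbp2 and less Igfbp5 and Igf1. No tail-tip fibroblasts were hybridised, so MEF stand for the starting cells of the embryonic lines only. Of the 17 member probes tested, 3 passed at an adjusted p of 0.05, 1 higher and 2 lower, where 9.21% of all probes passed (6.61% higher and 2.6% lower). None of these 3 calls held with the slide as a fixed block (adjusted p between 0.056 and 0.11, limma). Only the 2 Bmi1-Oct4 lines shared a slide with MEF. With that block the difference from MEF is therefore that of these 2 lines, not of all 9. For the spheres it is that of the lines on their slide, purmorphamine-Oct4 line 1 and tail-tip lines 1 and 2. The median difference over the 17 was -2.83 log2 units, beside 0.37 over all probes, and 13 of the 17 were lower. These 13 are probes, not genes, and some were at background in most lines. They include Igf2r (-0.02), which was saturated on all 12 arrays. Against ES no member probe passed with limma, 0 of the 17 had an unadjusted p under 0.05, and 0.0265% of all probes passed (0.0053% higher and 0.0212% lower). Against the spheres 5 member probes passed, of Igf2, Igfbp2 and Igfbp5 higher and of Igf1 (2 probes, 1 of them at background in 8 of the 9 lines) lower, where 7.24% of all probes passed (4.83% higher and 2.41% lower).

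**Figure D1:**
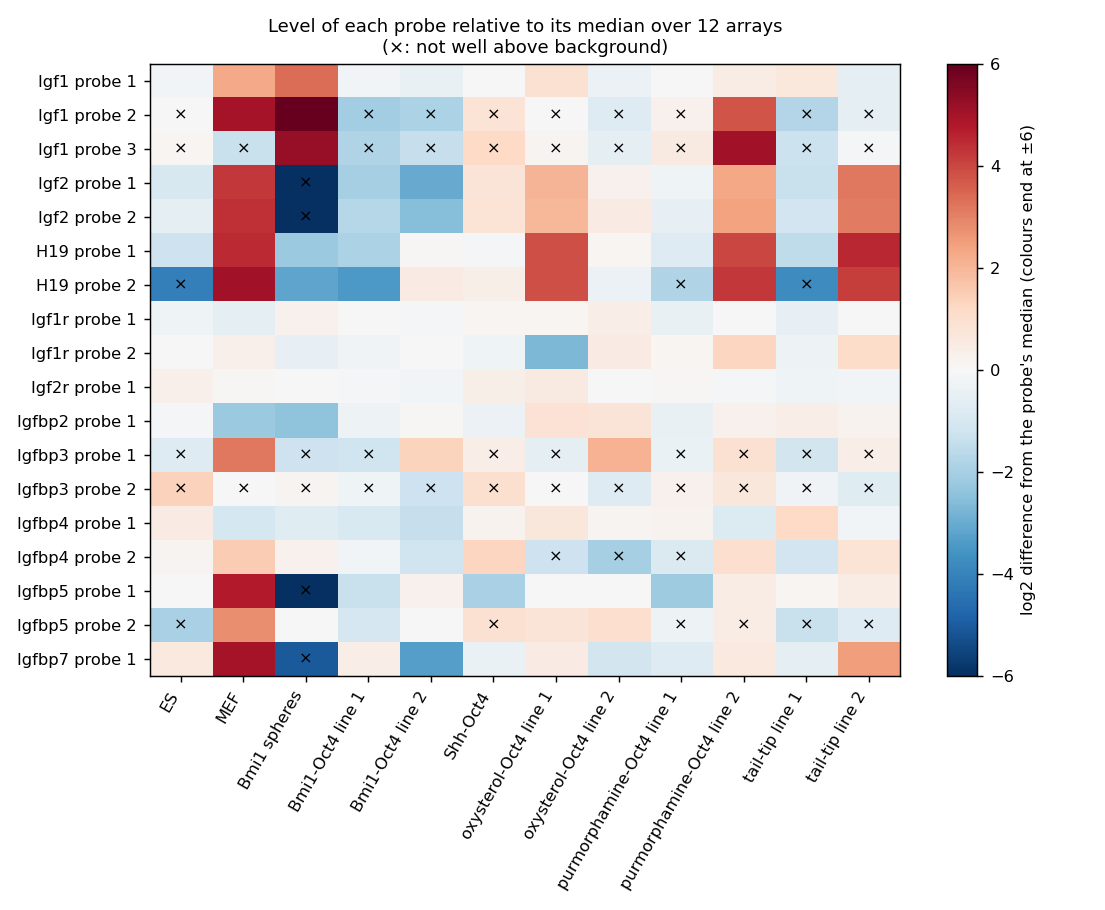
Heat map of the 18 member probes (rows) on the 12 arrays (columns); colour is the log2 difference from the probe's own median over the arrays, ending at ±6, and × marks signals not well above background. Igf2, H19, Igfbp5 and Igfbp7 are high in MEF, Igf1 is high in the spheres, and H19 and Igf2 are high in oxysterol-Oct4 line 1, purmorphamine-Oct4 line 2 and tail-tip line 2.

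H19 and Igf2 differed widely from line to line, also between lines made in the same way. H19 was read by 2 probes on the minus strand of chromosome 7 (mm7 build, the positions of the array's design), at chr7:139003144-139003203 and chr7:139003393-139003540. The sequences are shown because the second probe covers 60 of the 148 bases between its ends and so leaves out 88 genomic bases, while the first is contiguous; both are printed in the 5′ to 3′ direction of the RNA.
H19 probe 1: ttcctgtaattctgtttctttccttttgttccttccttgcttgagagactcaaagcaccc
H19 probe 2: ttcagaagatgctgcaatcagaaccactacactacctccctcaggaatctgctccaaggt

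H19 probe 1 was well above background on all 12 arrays. Its log2 level was 3.82 in MEF, -1.89 in ES and -2.88 in the spheres. It was -2.58 and -0.61 in Bmi1-Oct4 lines 1 and 2, and -0.72 in the Shh-Oct4 line. Oxysterol-Oct4 lines 1 and 2 lay at 3.20 and -0.56, purmorphamine-Oct4 lines 1 and 2 at -1.42 and 3.36, and tail-tip lines 1 and 2 at -2.18 and 3.86. Thus 3 lines stood near the MEF level, tail-tip line 2 slightly above it, and each of these had a sister line, made with the same agents from the same kind of fibroblast, that was far below. The other 6 lines lay between -2.58 and -0.56, around the level of ES.

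The sister lines differed in H19 probe 1 by 3.76 log2 units for oxysterol, 4.78 for purmorphamine and 6.04 for the tail-tip lines, against 1.97 for the Bmi1-Oct4 lines. The median absolute gap over all probes tested was between 0.59 and 0.81 in these 4 pairs. Both oxysterol arrays were on 1 slide and both tail-tip arrays on another, so the oxysterol and tail-tip gaps also stand within a slide. The purmorphamine lines were on different slides, so their gap lies across slides. The SD of H19 probe 1 over the 9 lines was 2.51, higher than in 98.2% of the probes tested, whose median SD was 0.83.

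On H19 probe 2 the same 4 arrays, MEF and these 3 lines, were the highest, in another order among themselves. It lay at 1.83 in MEF, 0.66 in oxysterol-Oct4 line 1, 1.03 in purmorphamine-Oct4 line 2 and 0.95 in tail-tip line 2. In the other lines it was between -6.98 and -2.74, and in ES, purmorphamine-Oct4 line 1 and tail-tip line 1 it was not well above background. The fitted difference of the lines from MEF was -4.63 log2 units on this probe (95% confidence interval -11.11 to 1.85) and -3.56 on probe 1 (-8.77 to 1.65), and neither difference passed (adjusted p = 0.34 and 0.36, limma with Benjamini-Hochberg adjustment over all probes). Within the slide that held MEF, ES and the Bmi1-Oct4 lines, the difference from MEF was -5.41 on probe 1.

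**Figure D2:**
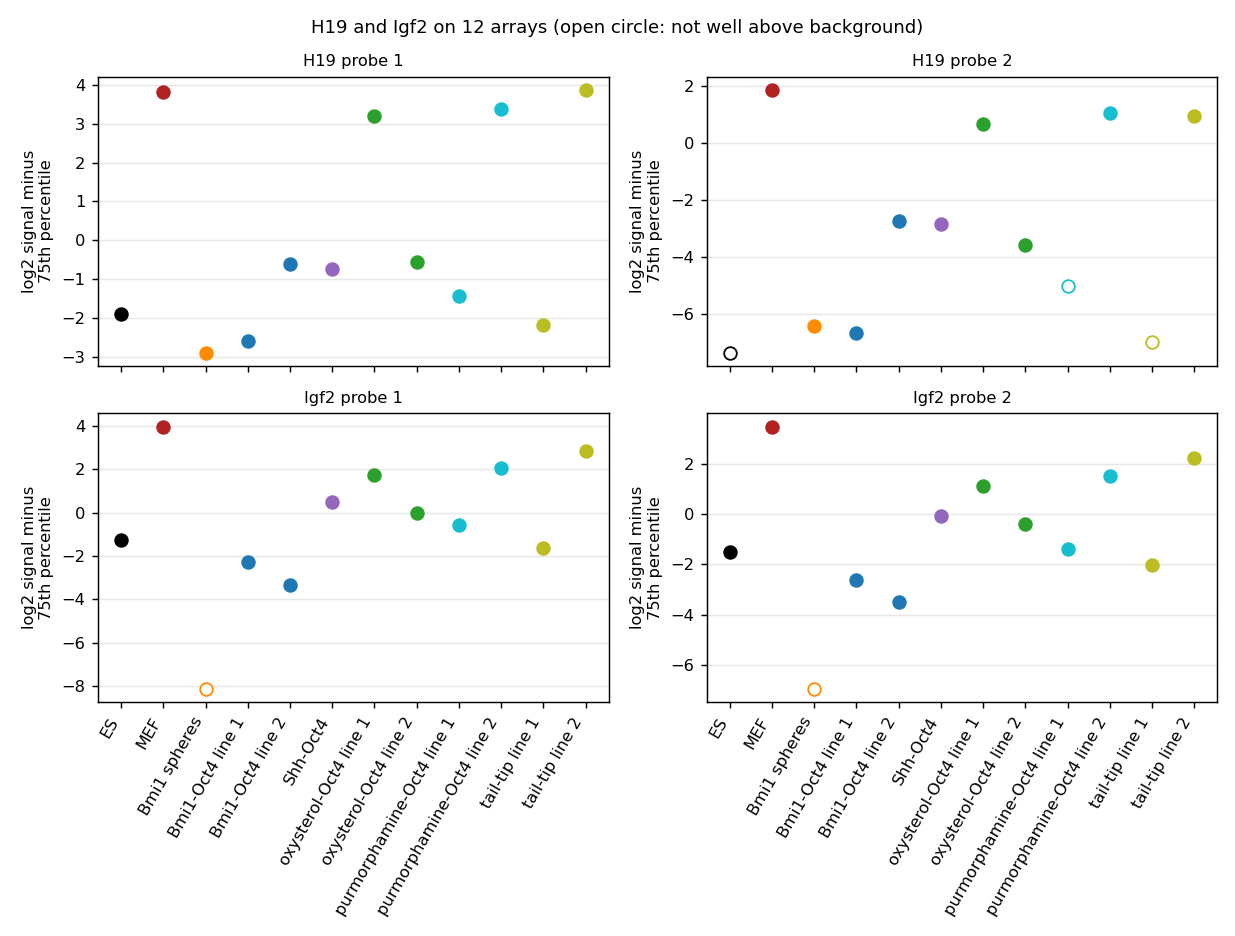
Log2 level (signal minus the array's 75th percentile, vertical axis) of both H19 probes and both Igf2 probes on each of the 12 arrays; each point is 1 array, colours mark the group, and open circles are signals not well above background. On H19 probe 1, oxysterol-Oct4 line 1 (3.20), purmorphamine-Oct4 line 2 (3.36) and tail-tip line 2 (3.86) stand near MEF (3.82) and apart from their sister lines.

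Igf2, the fetal growth factor gene, was read by 2 probes at chr7:139078075-139078135 and chr7:139078490-139078549 (mm7, minus strand), 74.9 kb from H19 probe 1. Igf2 probe 1 was spotted 10 times on each array. It lay at 3.96 in MEF and -1.27 in ES, and in the spheres it was not well above background (-8.13). Bmi1-Oct4 lines 1 and 2 had the lowest levels among the lines, -2.30 and -3.33. The Shh-Oct4 line had 0.47, oxysterol-Oct4 lines 1.73 and -0.02, purmorphamine-Oct4 lines -0.57 and 2.04, and tail-tip lines -1.62 and 2.85. The 3 lines with the highest Igf2 were therefore the 3 with the highest H19, although none reached MEF. Where the signal was above background, the log2 SD between the replicate spots of an array was between 0.044 and 0.12, far below these differences between lines.

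The correlation of Igf2 probe 1 with H19 probe 1 over the 12 arrays was r = 0.82, given as a description. The arrays did not fall on 1 order. Bmi1-Oct4 line 2 had the lowest Igf2 of the 9 lines (-3.33) with H19 at -0.61, above the H19 level of 4 other lines. The spheres had H19 above background on both probes and Igf2 above background on neither. Igf2 probe 2 gave 3.47 in MEF and between -3.48 and 2.22 in the lines, and it was not well above background in the spheres (-6.94).

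RefSeq (GRCm38.p6) lists 4 Igf2 transcription starts, and none for H19 in the table used. Igf2 was above background in all samples but the spheres, but which start was in use was not measured. The 250 bases before the start nearest to the end of the gene, chr7:142657497-142657746 on the minus strand, are shown as an example. Capitals mark the GC box GGGCGG, searched on both strands, which this window holds 2 times, another Igf2 window 1 time and the other windows not at all.
Igf2 promoter: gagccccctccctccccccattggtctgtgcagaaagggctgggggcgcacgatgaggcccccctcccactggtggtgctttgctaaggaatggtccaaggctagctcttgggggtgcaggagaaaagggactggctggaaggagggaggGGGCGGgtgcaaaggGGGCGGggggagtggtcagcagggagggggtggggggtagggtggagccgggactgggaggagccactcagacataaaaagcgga

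The mean difference of the lines from MEF was -4.05 log2 units on Igf2 probe 1 (SE 1.96, 95% interval -8.39 to 0.30, adjusted p = 0.22, limma) and -4.04 on probe 2 (adjusted p = 0.20), and neither passed. All 9 lines were nonetheless below the MEF array on both probes. Against the spheres, Igf2 probe 1 was at least 112-fold higher in the lines (adjusted p = 0.034, limma), a bound because the sphere signal was not above background. This call was lost when the Shh-Oct4 line, oxysterol-Oct4 line 2 or purmorphamine-Oct4 line 1 was left out (adjusted p between 0.053 and 0.054). It was also lost with normexp background, where the difference was 4.67 log2 units (adjusted p = 0.14), with the clone number as a replicate block (0.069), in the 8-group model (0.052) and within the slide of the spheres (0.13). On Igf2 probe 2 the lines were at least 79.4-fold higher, which did not pass (adjusted p = 0.068), and passed without Bmi1-Oct4 line 2 (adjusted p = 0.042).

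The 3 lines with the most H19 and Igf2 also had the most fibroblast marker RNA. The summed level of 14 fibroblast markers, in multiples of the 75th percentile, was 181 in MEF with all 14 above background. Tail-tip line 2 had 45.3 and purmorphamine-Oct4 line 2 had 31.7, with 12 of 14 above background in each, and oxysterol-Oct4 line 1 had 13.9 with 11 of 14. In the other 6 lines it was between 3.97 and 7.30 with 6 to 11 markers above background, and in ES it was 7.44 with 8. The sums of these 6 lines were all below that of ES. Among the 6, Bmi1-Oct4 line 2 had the highest sum and the lowest Igf2 (-3.33), and Shh-Oct4 the lowest sum and the highest Igf2 (0.47). By the median log2 level of the same 14 markers the order of these lines was reversed, with -3.61 in Bmi1-Oct4 line 2 and -3.11 in Shh-Oct4. Each marker was read by its brightest probe, which for Col1a1 lay at 0.74 in ES and 0.76 in MEF. On another Col1a1 probe, at 3.80 in MEF, tail-tip line 2 had 1.24 and purmorphamine-Oct4 line 2 -0.29. There Bmi1-Oct4 line 1 (-0.58) lay above oxysterol-Oct4 line 1 (-2.31). Among the 14 markers, Postn and Fap were not above background in any line, in ES or in the spheres. The other 12 were all above background in tail-tip line 2, purmorphamine-Oct4 line 2 and the spheres. The spheres had a summed level of 71.2, with 12 of 14 above background, beside H19 at -2.88 and no Igf2 signal. The part of these cells in the H19 and Igf2 levels was not tested. In bulk RNA such as this, fewer cells of a type and less RNA per cell cannot be told apart.

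**Figure D3:**
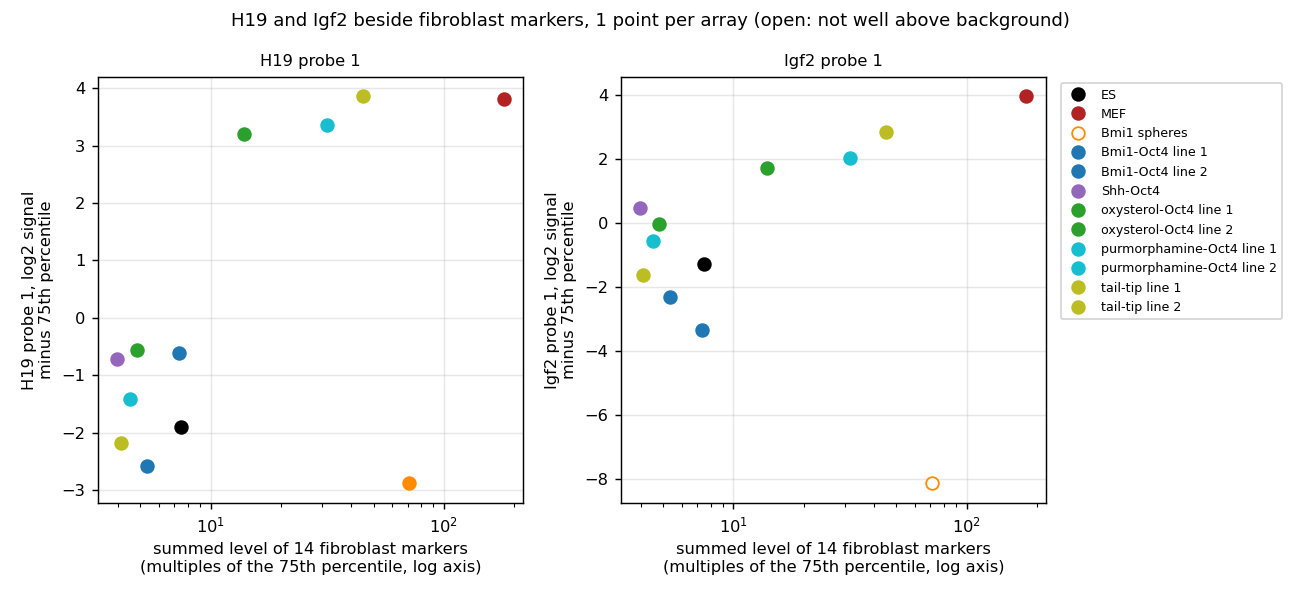
Log2 level of H19 probe 1 (left) and Igf2 probe 1 (right) against the summed level of 14 fibroblast markers (multiples of the array's 75th percentile, log axis); each point is 1 array and open circles are not well above background. The 3 lines with the highest H19 have marker sums of 13.9 to 45.3, the other 6 lines 3.97 to 7.30, and the spheres combine a sum of 71.2 with low H19 and no Igf2 signal.

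The genes whose pattern over the 12 arrays was most like that of H19 probe 1, among 23628 candidate probes, were Cyp1b1 (r = 0.92), Serpine2 (0.92), Fam171b (0.91), Pkp1 (0.91) and Eef2k (0.91). For Igf2 probe 1 they were Crhbp (r = 0.96), Ptk2 (0.96), Irak1 (0.96), Tmtc2 (0.95) and Hacd4 (0.95). Among the other members, each by its brightest probe, Igfbp7 (r = 0.88) and Igfbp5 (0.82) were most like Igf2, while Igf1 was not (r = -0.31). On these probes of Igf2, Igfbp7 and Igfbp5, MEF was the highest array and the spheres were not above background. The r values draw on these arrays as well as on the lines, and no r over the lines alone was computed. Igfbp5 probe 2 was above background in the spheres.

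Igf1, the other ligand gene, was highest in the spheres, which had no detectable Igf2. Igf1 probe 1 lies at chr10:87471884-87471943 (mm7, plus strand) and is the only one of the 3 Igf1 probes above background on every array, which is why its sequence is shown.
Igf1 probe 1: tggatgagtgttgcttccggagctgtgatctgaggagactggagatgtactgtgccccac

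Its log2 level was 2.17 in the spheres, 1.11 in MEF and -1.35 in ES. The lines ran from -1.76 (tail-tip line 2) through a median of -1.20 to -0.27 (oxysterol-Oct4 line 1), all below MEF and below the spheres. Igf1 fell in the lines against MEF by 2.24 log2 units (SE 0.58, adjusted p = 0.039, limma) and against the spheres by 3.30 (SE 0.58, adjusted p = 0.0064). The call against MEF did not hold when any of 5 lines was left out (Bmi1-Oct4 line 1 or 2, the Shh-Oct4 line, oxysterol-Oct4 line 2 or purmorphamine-Oct4 line 1, adjusted p between 0.054 and 0.061, limma). Nor did it hold with the clone number as a block (0.068), in the 8-group model (0.11), or without both tail-tip lines (0.054). With the slide as a block, the difference was that of the Bmi1-Oct4 lines alone (-2.60, adjusted p = 0.069, limma).

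Igf1 probe 2, spotted 10 times, was above background on 3 arrays only, at 1.00 in the spheres, -2.11 in MEF and -3.33 in purmorphamine-Oct4 line 2. It was thus 8.63-fold higher in the spheres than in MEF, 1 array each and without a test, and at least 82.0-fold higher than in ES. The lines were lower than the spheres on it (adjusted p = 0.015, limma), but 8 of the 9 lines were not above background, so the size is set by signals at background: the fitted difference was -8.37 log2 units, and -5.59 with normexp background. Against MEF the fitted difference was -5.26 (adjusted p = 0.086), and -2.56 with normexp background (adjusted p = 0.037). Without purmorphamine-Oct4 line 2, the 1 line above background, it passed (adjusted p = 0.012), as a comparison of MEF with lines at background. Igf1 probe 3 was above background in the spheres (-2.40) and purmorphamine-Oct4 line 2 (-2.58) and on no other array, so MEF showed Igf1 signal on 2 of the 3 probes.

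For the receptor genes, the probes of Igf1r disagreed and that of Igf2r was saturated. Igf1r probe 1 (chr7:64082649-64082708, mm7, plus strand) lay at 1.60 in ES, 1.33 in MEF and 2.10 in the spheres, and in the lines between 1.35 and 2.24 with a median of 1.89. Its SD over the lines was 0.28, lower than in most probes, with 5.85% of the tested probes below it. The lines differed from MEF by 0.49 log2 units (95% interval -0.45 to 1.43), from ES by 0.22 (-0.73 to 1.16) and from the spheres by -0.28 (-1.22 to 0.66), and none of these passed (adjusted p between 0.49 and 1.00, limma).

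Igf1r probe 2 read between -2.15 and -0.53 in 8 lines and -4.52 in oxysterol-Oct4 line 1, against -1.79 in ES, -1.51 in MEF and -2.30 in the spheres. The 2 probes that the array lists under older Igf1r synonyms gave another picture: at chr7:64088091-64088150 MEF lay at 1.40 and the lines between -0.85 and 0.06, and at chr7:64083593-64083652 MEF lay at 1.74 and the lines between -2.61 and -0.79. Both fell in the lines against MEF, with differences of -1.70 (adjusted p = 0.043, limma) and -3.17 log2 units (adjusted p = 0.0081). How these 2 calls depend on the processing, the slide or single lines was not examined. The probes of Igf1r therefore disagree on a difference between the lines and MEF.

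The Igf2r probe (chr17:11399590-11399648, mm7, minus strand) was saturated on all 12 arrays, at log2 levels between 4.89 and 5.70. Its brightness cannot be ordered between samples, and no fold is given for this receptor gene.

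Among the binding proteins, neighbouring genes differed from MEF in opposite directions. Igfbp2, a binding protein with a preference for IGF2, and Igfbp5, a binding protein that also attaches to extracellular matrix, were read by probes 6092 bases apart on chromosome 1, on opposite strands. Igfbp2 was read at chr1:73093964-73094023 (plus) and Igfbp5 probe 1 at chr1:73100116-73100175 (minus, mm7). The 250 bases before a RefSeq start of each gene (GRCm38.p6) are shown because these neighbours parted: chr1:72824230-72824479 on the plus strand for Igfbp2 and chr1:72874866-72875115 on the minus strand for Igfbp5. Capitals mark GGGCGG (GC box) and CACGTG (E-box), searched on both strands.
Igfbp2 promoter: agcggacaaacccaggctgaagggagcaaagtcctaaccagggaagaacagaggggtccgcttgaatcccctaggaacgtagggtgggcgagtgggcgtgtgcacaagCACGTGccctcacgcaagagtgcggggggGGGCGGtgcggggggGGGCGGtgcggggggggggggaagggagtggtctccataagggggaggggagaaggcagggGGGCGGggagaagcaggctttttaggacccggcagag
Igfbp5 promoter: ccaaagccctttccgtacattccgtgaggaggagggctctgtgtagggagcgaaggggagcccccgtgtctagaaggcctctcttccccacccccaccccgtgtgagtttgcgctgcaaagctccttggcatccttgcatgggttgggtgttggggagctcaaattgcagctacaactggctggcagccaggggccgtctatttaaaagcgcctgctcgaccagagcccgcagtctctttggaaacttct

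This Igfbp2 window holds 3 GC boxes and 1 E-box and the Igfbp5 window neither. RefSeq lists a second Igfbp2 start, whose window (chr1:72825137-72825386) also holds neither. Over the 13 RefSeq start windows of 9 member genes, 6 held GGGCGG, 2 held CACGTG and 1, of Igfbp4, held TATAAA. Of all 32851 windows of 250 bases, 32.7%, 6.02% and 12.4% held these motifs.

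Igfbp2 lay at 1.65 in ES, -0.50 in MEF and -0.72 in the spheres. All 9 lines were higher than both of the latter, from 1.29 (purmorphamine-Oct4 line 1) through a median of 1.90 to 2.58 (oxysterol-Oct4 line 1). Igfbp2 rose in the lines against MEF by 2.38 log2 units (SE 0.55, adjusted p = 0.025, limma) and against the spheres by 2.60 (SE 0.55, adjusted p = 0.018). With the slide as a block the differences rested only on the lines that shared the slide of MEF or of the spheres. They were 2.09 and 2.50 and did not pass (adjusted p = 0.11 and 0.061, limma). Nor did they pass without the tail-tip lines (0.058 and 0.051), or without Bmi1-Oct4 line 1, purmorphamine-Oct4 line 2 and tail-tip line 2 (0.067 and 0.060). Sister lines differed by at most 0.69 on this probe.

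Igfbp5 probe 1 lay at 4.29 in MEF and -0.47 in ES, and was not above background in the spheres (-9.07). In the lines it ran from -2.60 (purmorphamine-Oct4 line 1) through a median of -0.43 to 0.0039 (tail-tip line 2), all below MEF. Igfbp5 fell in the lines against MEF by 5.20 log2 units (SE 1.03, adjusted p = 0.012, limma). Against the spheres it was at least 62.7-fold higher (adjusted p = 0.00074). Within the slide of MEF the Bmi1-Oct4 lines gave -5.28. The fit with the slide as a block gave this same difference, from the same lines, with an adjusted p of 0.056 (limma). Igfbp5 probe 2, above background in MEF (-2.49), the spheres (-5.29) and 4 lines, differed from MEF by -2.83 (adjusted p = 0.072) and from the spheres by -0.03 (95% interval -1.97 to 1.91), so the Igfbp5 probes disagree on the spheres.

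**Figure D4:**
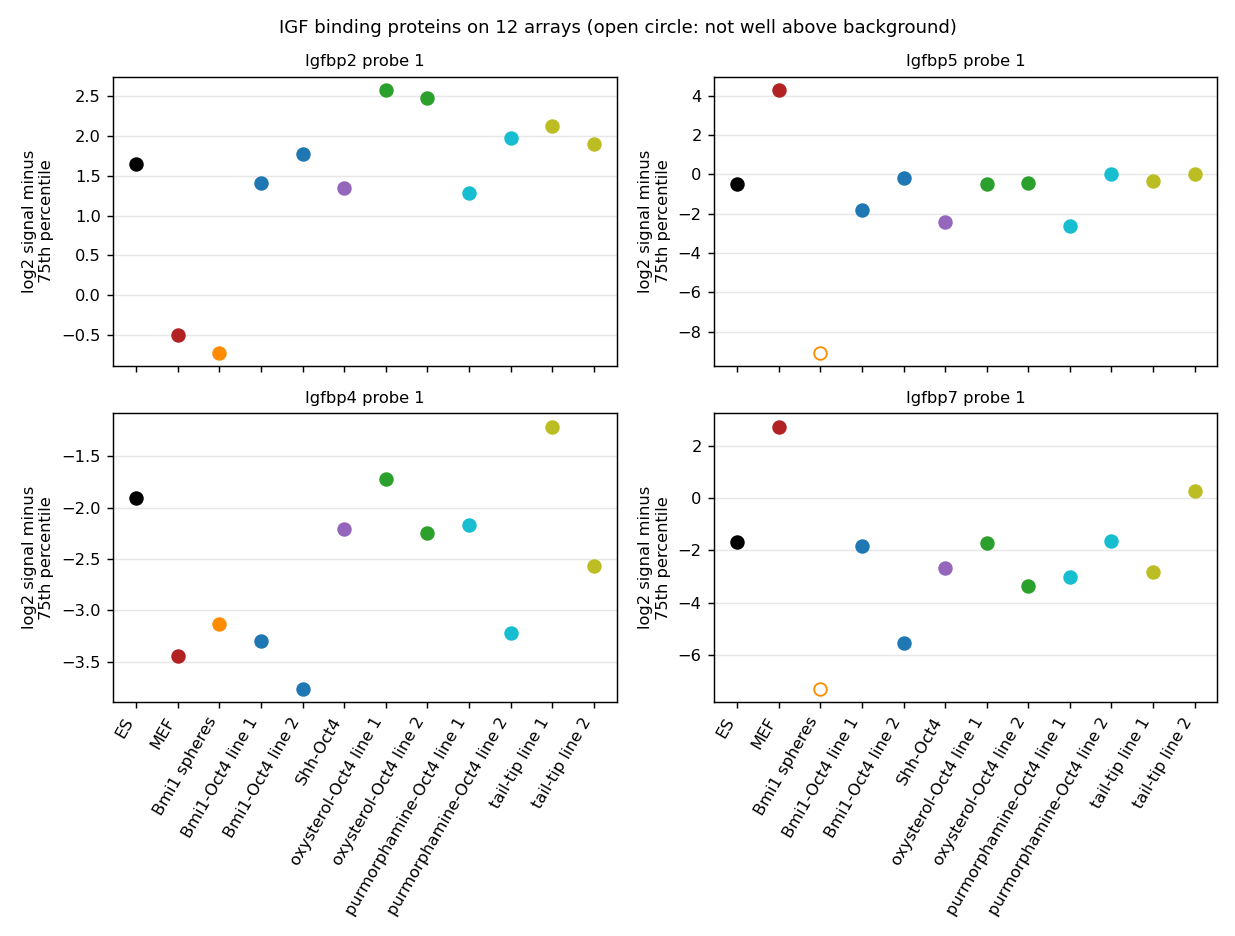
Log2 level (signal minus the array's 75th percentile, vertical axis) of Igfbp2, Igfbp5 probe 1, Igfbp4 probe 1 and Igfbp7 on each of the 12 arrays; each point is 1 array and open circles are signals not well above background. Igfbp2 is at 1.29 or more in every line and below 0 in MEF and the spheres, whereas Igfbp5 and Igfbp7 are highest in MEF (4.29 and 2.73).

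Igfbp7 (chr5:77280659-77280718, mm7, minus strand), a secreted binding protein with low affinity for IGFs, lay at 2.73 in MEF and -1.66 in ES, and was not above background in the spheres (-7.29). The lines ran from -5.53 in Bmi1-Oct4 line 2 through a median of -2.66 to 0.28 in tail-tip line 2, and all 9 were below MEF. The difference from MEF was -5.21 log2 units (95% interval -8.53 to -1.89) and missed the threshold (adjusted p = 0.056, limma). It passed without tail-tip line 2 (adjusted p = 0.024) and without Bmi1-Oct4 line 2 (adjusted p = 0.031). Against the spheres the lines were at least 21.3-fold higher (adjusted p = 0.087), which passed without Bmi1-Oct4 line 2 (adjusted p = 0.025).

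Igfbp3, whose product is the main carrier of IGFs in blood, was near background. Its probe 1 was above background in MEF (-3.40), Bmi1-Oct4 line 2 (-5.22) and oxysterol-Oct4 line 2 (-4.45) and on no other array. The difference of the lines from MEF was -2.95 (adjusted p = 0.12, limma), with 2 of the 9 lines measured. It passed with the clone number as a block (-3.73, adjusted p = 0.017).

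Igfbp4, a binding protein that inhibits IGF action until it is cleaved, gave probes that disagree. On probe 1 (chr11:99157316-99157375, mm7, plus strand) MEF was lower than 8 of the 9 lines, at -3.45 against a line range of -3.77 to -1.21 and -1.91 in ES. On probe 2 (chr11:99161059-99161118) MEF had the highest level of all 12 arrays, -2.44, and 6 of the 9 lines were above background, between -5.16 and -2.67. The probe 1 sequence is shown as the one read above background on every array.
Igfbp4 probe 1: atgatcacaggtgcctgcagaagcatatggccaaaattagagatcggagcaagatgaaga

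The lines differed from MEF by 0.96 log2 units on probe 1 (95% interval -0.87 to 2.79) and by -1.92 on probe 2 (-4.45 to 0.61), and neither passed (adjusted p = 0.48 and 0.32, limma). No direction is given for Igfbp4.

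**Figure D5:**
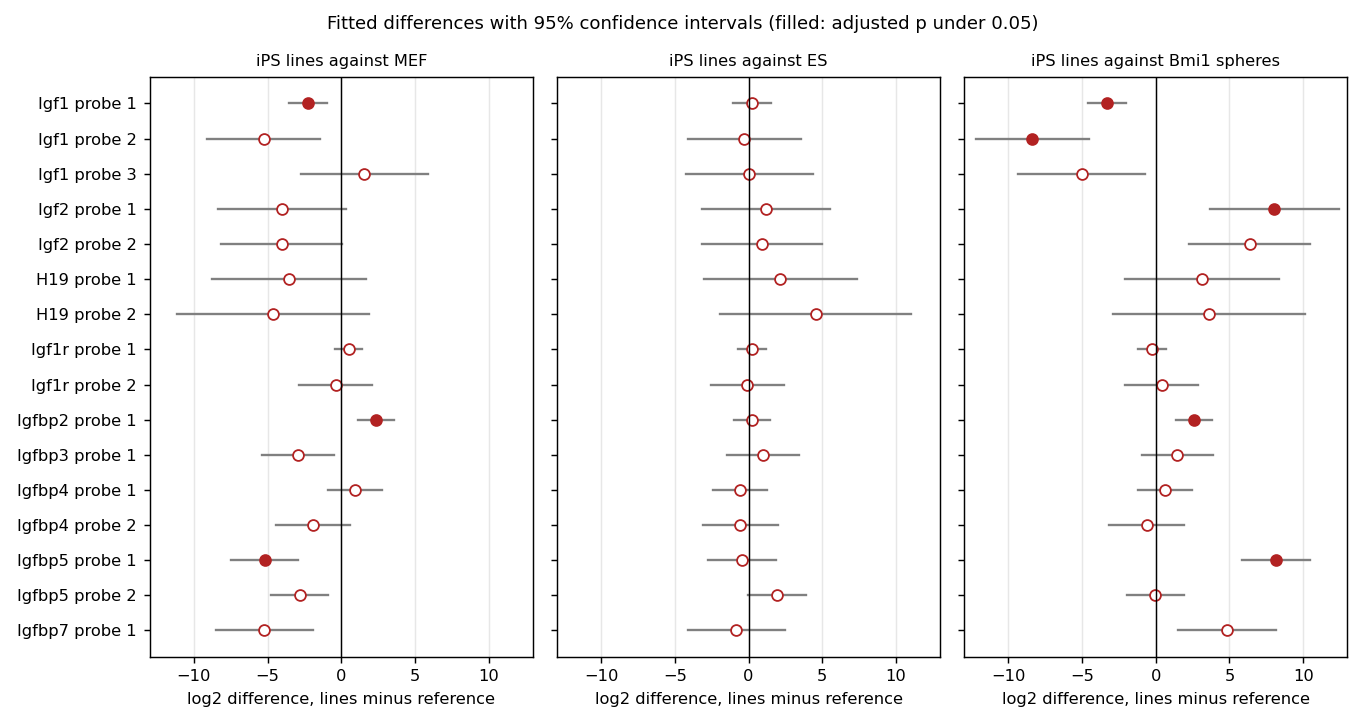
Fitted log2 differences of the 9 lines from MEF, ES and the spheres (horizontal axis, lines minus reference) for 16 member probes, without Igf2r, which was saturated, and Igfbp3 probe 2, which was not tested; bars are 95% confidence intervals and filled points have an adjusted p under 0.05. Against MEF, Igfbp2 is filled above 0 and Igfbp5 probe 1 and Igf1 probe 1 are filled below 0, no point is filled against ES.

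Against ES, the reference pluripotent cells, the largest fitted differences of the lines were those of H19, 2.15 log2 units on probe 1 (95% interval -3.05 to 7.36) and at least 5.89-fold higher on probe 2, where ES was not above background. Igf1 probe 1 differed from ES by 0.23 log2 units (-1.06 to 1.52), Igf1r probe 1 by 0.22 (-0.73 to 1.16) and Igfbp2 by 0.22 (SE 0.55). Igf2 probe 1 differed by 1.19 (-3.16 to 5.53). The Igfbp5 probes differed from ES in opposite directions, probe 1 by -0.45 (-2.72 to 1.83) and probe 2 by 1.93 (-0.01 to 3.87), with all 9 lines above the ES signal on probe 2, 4 of them above background. For Igf2 and H19 these intervals reach from several-fold lower to many-fold higher, and the missed threshold (adjusted p = 1.00 for each, limma) does not show that the lines and ES were alike.

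How the lines were made did not separate the members by a test. For any difference among the 5 groups of lines, 0 of 17 member probes and 0.0% of all probes passed with limma, and 0 had an unadjusted p under 0.05. For the Bmi1-Oct4 lines against the lines made with hedgehog activators, again 0 of 17 and 0.0% passed, while 3 member probes had an unadjusted p under 0.05, as had 3914 of 37713 probes in all. They were Igf1 probes 2 and 3, each above background in 1 line, and Igf2 probe 1. Igf2 probe 1 differed by -3.50 log2 units in the Bmi1-Oct4 lines (95% interval -6.81 to -0.19, adjusted p = 0.44), whose levels of -2.30 and -3.33 lay below those of all 5 activator lines. The Bmi1-Oct4 arrays were on 1 slide and the activator lines on the other 2, so slide and group cannot be told apart here.

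For the tail-tip against the embryonic oxysterol lines, 0 of 17 and 0.0% passed, with 1 member probe, Igfbp5 probe 2, at an unadjusted p under 0.05, as had 2472 of 37779 probes in all. Each of these groups held 1 line with high and 1 with low H19, and the difference between the groups was -0.48 log2 units on H19 probe 1 (95% interval -6.53 to 5.57) and -0.24 on Igf2 probe 1 (-4.13 to 3.65). The tail-tip arrays were all on 1 slide and the embryonic oxysterol arrays on another, so slide goes with group here. A fixed slide term for this comparison rests on the purmorphamine lines alone, and with it 0 of 17 passed.

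Between the single arrays of ES, MEF and spheres there is no test, and probes were counted that were at least 2-fold apart and above background in the higher sample. From MEF to ES, 2 member probes were higher (25.2% of all probes) and 11 lower (23.0%). H19 probe 1 was 52.5-fold, Igf2 probe 1 37.7-fold and Igfbp7 21.0-fold lower in ES than in MEF, and Igfbp2 was 4.46-fold higher. From MEF to the spheres, 3 member probes, all of Igf1, were higher (32.6% of all) and 9 lower (18.8%). Igf2 probe 1 was at least 1848-fold, Igfbp5 probe 1 at least 2311-fold and Igfbp7 at least 788-fold lower in the spheres, and H19 probe 1 was 104-fold lower. From ES to the spheres, 4 member probes were higher (29.1% of all) and 6 lower (21.0%), with Igfbp2 5.19-fold lower and Igf1 probe 1 11.5-fold higher.

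The rest of the pathway was read from 4 lists, each gene by its brightest probe. Of 10 tested genes for other ligands, binding proteins and their proteases, 1 passed against MEF, where 9.21% of all probes passed. It was Pappa, a protease that cleaves IGF-bound IGFBP4, which fell by 5.66 log2 units (SE 1.13, adjusted p = 0.012, limma). Against the spheres 3 of the 10 rose, Igfbpl1 (5.18), Stc1 (6.81) and Stc2 (3.88), and Igfbp6 fell (-6.66), where 4.83% of all probes rose and 2.41% fell. For these 4 the adjusted p was between 0.0027 and 0.038 (limma). The stanniocalcins Stc1 and Stc2 are inhibitors of Pappa. The list's median difference was -0.39 from MEF and -0.10 from the spheres, beside 0.37 and -0.05 over all probes.

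Of 28 tested genes for insulin receptor relatives and intracellular signalling, Gab1, a docking adaptor of receptor tyrosine kinases, was the only one to pass. Of all probes, 9.21% passed against MEF and 7.24% against the spheres. Gab1 was thus 1 of 28 in either comparison. It rose by 4.65 log2 units against MEF (adjusted p = 0.00032, limma) and by 4.16 against the spheres (adjusted p = 0.00053), and it was higher in 9 of 9 lines than in either. The median of the list was -0.56 against MEF and -0.11 against the spheres.

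Of 11 tested factors known to act on Igf2 or H19 RNA or on their imprint, 4 rose against MEF and none fell. Of all probes, 6.61% rose and 2.6% fell. Zfp57, a zinc finger protein that keeps imprints methylated, rose by 4.08 log2 units (adjusted p = 0.00024, limma), and Trim28, the corepressor it recruits, by 1.99 (adjusted p = 0.046). The RNA-binding proteins Lin28a and Lin28b were at least 512-fold and at least 26.9-fold higher. Zfp57 lay between 3.80 and 4.51 in the lines. Its bearing on H19 or on the imprint was not tested. Against the spheres 3 rose, namely Zfp57, Trim28 and Lin28a, where 4.83% of all probes rose. The list's median was 1.44 against MEF and 1.61 against the spheres.

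Of 16 neighbours of H19 and Igf2 on chromosome 7, 1 rose and 3 fell against MEF, where 6.61% of all probes rose and 2.6% fell. Phlda2, an imprinted growth restrictor, rose by 5.36 log2 units (adjusted p = 6.74e-05, limma). The fallers were Tnnt3 (-5.04), a muscle troponin, Syt8 (-4.71) and Lsp1 (-4.51), with 7, 1 and 2 of the 9 lines above background. Phlda2 lay between 2.44 and 3.35 in all lines, a narrower range than that of H19 or Igf2. Against ES none of the genes of the 4 lists passed, where 0.0265% of all probes passed. The list medians against ES were 0.27, -0.08, -0.03 and -0.13 in the order given.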

How the data were processed

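Per the file headers, the authors scanned each array at 5 microns per pixel and used Agilent Feature Extraction 9.5.3.1, whose processed signal is the deposited intensity, beside flags for background, saturation and outliers. Replicate spots were averaged on the log2 scale without outlier spots and the array's 75th percentile was subtracted (the log2 step was done here on the deposited values). Probes were named by accession, symbol or synonym through a RefSeq table of GRCm38.p6. Tests used limma 3.58.1 in R 4.3.3, per probe, in a 4-class model (8 residual degrees of freedom) or, among line groups, an 8-group model (4), with Benjamini-Hochberg adjustment over all probes. Samples with 1 array were assumed to vary like the lines. Fits were tested on simulated data. A fold is a bound where 1 side was not above background on any array, taken at the array's floor (-7.25 to -4.18 log2 units). The number of arrays limits the precision.

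The members and lists were chosen with earlier results of these data known. Named were all members, the label checks, up to 4 genes of a list that passed against MEF, and the 5 genes most like H19 and Igf2. The Igf1r synonym probes and the list genes that passed only against the spheres were named after their values were seen. Alternatives were normexp background, quantile normalization, the percentile over probes detected on all arrays, other filters, 1 probe per gene, the other model, an intensity trend, slide and clone-number blocks, fits within a slide and left-out lines.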

Additional observations from a re-analysis of the deposited data

Results flagged for a closer look

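Among the 17 member probes tested, 3 had 1 line far from the other 8 by Dixon's gap test, which chance alone flags for about 1 in 20 groups. Igf1 probe 2 was highest in purmorphamine-Oct4 line 2, at -3.33, and Igf1 probe 3 was highest in the same line, at -2.58. On both probes this was the only line above background, and the next line stood at -6.27 and -6.41. Igf1 probe 1 was not set apart there, at -0.72. Igf1r probe 2 was lowest in oxysterol-Oct4 line 1, at -4.52, with the next line at -2.15, while Igf1r probe 1 lay at 1.99 in that line, within the range of the others. The 3 lines with high H19 were not singled out by this test, since it looks for 1 sample apart.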

How the results depend on the processing

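The count of member probes that passed against MEF was 3, and became 5 with normexp background, 6 without the 3 lines with the most fibroblast marker signal (an alternative chosen after seeing the data) and 0 within the slide of MEF, where no probe of the array passed. With slide as a fixed block, which sets MEF against the Bmi1-Oct4 lines alone, 2217 of all probes passed, from 3478. Then 2 member probes passed, both other than the 3: Igf1 probe 2 (adjusted p = 0.046, limma) and Igfbp5 probe 2 (0.023). Left-out single lines gave 2 to 4. H19 probe 1 (-5.17, adjusted p = 0.015, limma) and Igf2 probe 2 (-5.14, adjusted p = 0.046) passed without those 3 lines, which are also the 3 with the most H19, so these calls are not read further; Igfbp2 then missed (adjusted p = 0.053). Against the spheres the count was 5, became 1 within their slide (766 over all probes, from 2734), and was 4 to 7 with single lines left out. Against ES and between groups of lines it was 0 in every alternative run, while the count over all probes moved from 10 against ES to between 0 and 131, and for the Bmi1-Oct4 comparison from 0 to 3543 with no filter. For single members, 2093 recomputed values kept their side of the threshold, 31 lost a call, 26 gained one and none of those called changed sign. Clone numbers do not pair the lines: over the 6 pairs of groups, the correlation of line 1 minus line 2 was between -0.15 and 0.22. With the number as a replicate block, 3 member probes passed against MEF, with Igf1 probe 1 lost (adjusted p = 0.068) and Igfbp3 probe 1 gained (0.017), 4 against the spheres and 0 against ES, among the 5 groups, for Bmi1-Oct4 and for tail-tip lines. A fixed slide term could not be fitted among the 5 groups or for the Bmi1-Oct4 lines, since slide 1 shares no group of lines with another slide. A 3-fold threshold left 11, 10 and 9 member probes for ES against MEF, spheres against MEF and spheres against ES. Array number and signals near background limit Igf1 probes 2 and 3, Igfbp3 and H19 probe 2, and saturation limits Igf2r.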
